A study of Drosophila melanogaster with 4 samples.

Results

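The hedgehog gene (hh) of Drosophila melanogaster was examined for binding of the Myb protein in wing imaginal discs, over a 50 kb window at chr3R:18935000-18985000 of the dm3 (release 5) assembly. All genome probes of the second of 2 array designs whose position lies in this window were taken, without regard to their signal. They number 684 of the 934962 genome probes of that design and of 1870562 on both designs. All 684 were measured in both biological replicates. The probes have a median length of 50 bp and a median spacing of 66 bp from start to start, with no gap over 112 bp, whereas the sheared chromatin had an average fragment size of 400 bp. Neighboring probes therefore read overlapping fragments and are not independent.

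Hedgehog is a secreted morphogen. In the wing disc it is made by cells of the posterior compartment, where Engrailed is active, and it signals to anterior cells along the compartment border by binding Patched, which frees Smoothened and changes the processing of the transcription factor Cubitus interruptus. In anterior cells hh is kept off, in part by Polycomb group proteins that act through response elements in the gene. Myb is the fly member of the MYB family of DNA binding proteins and a subunit of the dREAM (MuvB) complex, which sits at promoters of cell cycle genes and at many other sites.

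The data came from chromatin immunoprecipitation followed by hybridization to tiled microarrays (ChIP-chip). Discs were dissected from male larvae of the third instar of the yw67 strain (Yellow white, with yellow body and white eyes) and fixed in 1.8% formaldehyde for 15 min. There was 1 condition, with 2 biological replicates, each hybridized to both array designs, for 4 arrays. On every array the Myb immunoprecipitate (IP) carried Cy5 and the input, which is sonicated genomic DNA, carried Cy3. The sample records give 1000 discs for each immunoprecipitation, so a replicate pools many animals, whereas the methods of the study give a smaller number. No array was hybridized with the dyes swapped, with a control antibody or with chromatin of Myb mutant discs. The only reference is the input, and a dye effect on a probe cannot be told apart from its enrichment. Each array was a slide of its own, and the arrays of a replicate were scanned on the same day, apart from those of the other replicate, so replicate and scan day cannot be told apart either. Whole discs hold posterior cells, which express hh, and anterior cells, which do not. Myb on a site in more cells and more Myb on that site per cell cannot be told apart in such pooled tissue.

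Values are log2 ratios of the processed Cy5 over the processed Cy3 intensity, centred on the median of the genome probes of each array, so that 0 is the level of the median probe and not the absence of Myb. On this scale the hh window was above the array median in both replicates. Its mean log2 ratio was 0.45 in replicate 1 and 0.55 in replicate 2, or 0.50 ± 0.07 (SD, n = 2), equal to 1.37-fold and 1.47-fold over the median probe. The sign was the same in both replicates and the mean was larger than the spread between them. With 2 replicates an exact sign permutation cannot give a two-sided p under 0.5, so no p is given for the window. Of the 684 probes, 494 (72.2%) were above 0 in both replicates, against 40.8% of the probes of chromosome arm 3R, and 120 had opposite signs in the 2 replicates.

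The departure of each probe from 0 was tested with limma, adjusting by Benjamini-Hochberg over the 1865871 probes of both designs with a value in each replicate. At an adjusted p below 0.05, 191 probes of the window (27.9%) were enriched. The background was 9.77% of all probes and 11.2% of the probes of 3R. A further 13 probes (1.90%) were depleted, against 3.86% of all probes and 2.56% on 3R. Enrichment was therefore called at a higher share of probes in the hh window than on the arm. The share depleted was under that of all probes, and nearer to that of 3R, though under it too.

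The stretches of equal length beside the window were lower. The 50 kb before it averaged −0.04 (replicate 1) and −0.09 (replicate 2), with 23 of 684 probes enriched (3.36%), although its mean turned to 0.07 when arrays were centred on the mode in place of the median. The 50 kb after it had 0.13 and 0.30, with 85 of 681 probes enriched (12.5%). The hh window lay above both neighbors in both replicates, and the order was the same in each, with the preceding stretch lowest.

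Among the 557 other consecutive 50 kb windows of 3R, the median window had a mean log2 ratio of 0.15 and 44 windows were higher than hh. The hh window stood at percentile 91.7 in replicate 1 and 92.1 in replicate 2. By the share of enriched probes it stood at percentile 93.0, with 9.01% enriched in the median window. By the share of depleted probes it stood at percentile 52.1, with 1.85% in the median window. It thus belonged to the upper part of the arm by its mean and its enriched probes, without being at its top, and to the middle by its depleted probes. Percentiles describe this arm on these arrays and carry no p.

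**Figure D1:**
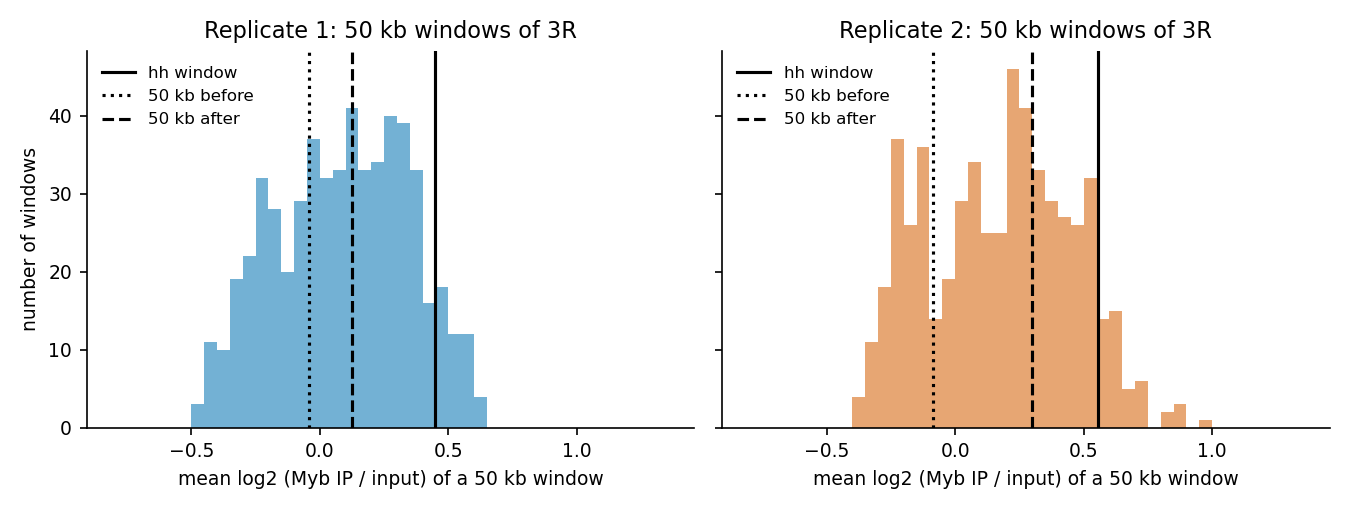
Mean log2 (Myb IP / input) of consecutive 50 kb windows of chromosome arm 3R (x axis) against the number of windows (y axis), replicate 1 on the left and replicate 2 on the right. The solid line marks the hh window, at 0.45 and 0.55, to the right of most windows, and the dotted and dashed lines mark the 50 kb before and after it, both to its left.

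The gene itself could not be placed by coordinates, since no dm3 annotation was used here. Among the protein-coding genes of the Release 6 annotation of RefSeq, hh lies between CG31457 and unk. On dm3, the transcript of CG31457 is at chr3R:18952430-18953502 in the study's expression table, and a bound interval that the study assigns to unk is at chr3R:18983671-18984378. The 30.2 kb between them was taken as the interval that holds hh. Its limit on the unk side is the bound interval and not an end of unk, so whether part of unk lies inside was not determined. The exons, introns and start site of hh and the DNA on either side of its transcript are not told apart below. Distances are given from the end of the CG31457 transcript that faces hh, and they are positive toward unk.

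By the means of 1 kb bins, the window lay above the array median apart from its first kilobases. The log2 ratio was above 0 in both replicates in 46 of the 50 bins, against 45.1% of the 27643 bins of 3R with at least 5 probes. The 4 exceptions were all among the first 6 bins. Those 6 bins held 82 probes, none of them enriched and 1 depleted, and their means ran from −0.44 to 0.40 in replicate 1 and from −0.21 to 0.41 in replicate 2. In 39 of the 50 bins at least 1 probe was enriched, a count for which no share over the bins of 3R was computed. The replicates did not rank the bins closely. Pearson's r between them was 0.45 over the 50 bins of the window, and 0.74 over the bins of 3R, which span a wider range of levels.

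The bin with the highest mean started at chr3R:18943000, on the CG31457 side of the window, with 1.13 in replicate 1 and 1.35 in replicate 2. The next highest started at chr3R:18971000, 17.5 kb into the interval that holds hh, with 1.08 and 1.02 and 13 probes enriched. Then came the bin at chr3R:18980000, close to unk, with 0.94 and 0.95 and 12 probes enriched. These 3 bins were above 0.5 in both replicates, as were 13 of the 50 bins (26.0%) against 12.0% of the bins of 3R. The lowest bin was the first of the window, with −0.44 and −0.21.

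**Figure D2:**
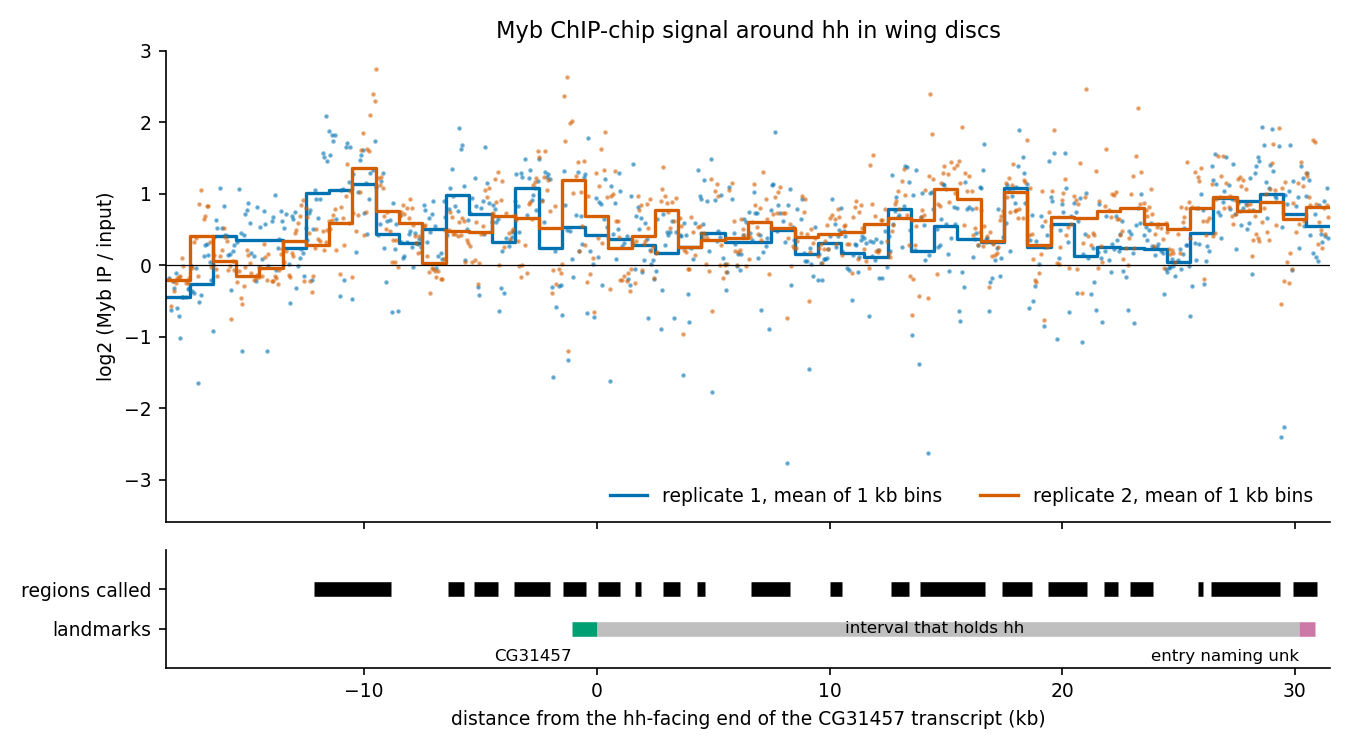
Log2 (Myb IP / input) of the 684 probes (points) and of 1 kb bins (stepped lines) in replicate 1 (blue) and replicate 2 (orange), against distance from the hh-facing end of the CG31457 transcript (kb), with the called regions, the CG31457 transcript, the interval that holds hh and the entry naming unk below. Both lines stay above 0 in 46 of 50 bins, with the highest bins starting 10.5 kb before the end of CG31457, 17.5 kb into the hh interval and near unk, and the lowest at the left edge.

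Taken by landmark, the window was above 0 in each of its parts. The 17.4 kb before the CG31457 transcript had 0.50 in replicate 1 and 0.43 in replicate 2 over 239 probes, with 61 enriched. The 14 probes of the CG31457 transcript had 0.51 and 0.61, with 6 enriched. The interval that holds hh had 0.41 and 0.61 over 411 probes, or 0.51 ± 0.14 (SD, n = 2), with 116 enriched (28.2%) and 11 depleted. The mean of the hh interval lay between those of the CG31457 transcript and of the stretch before it, and the 3 differed by less than the spread of the hh interval between replicates. The last 1.33 kb, from the entry naming unk to the edge, had 0.67 and 0.88 over 19 probes. All 19 were above 0 in both replicates, against 40.8% of the probes of 3R. The study called that entry, with 10 of these probes, on these same arrays, so the height of this part is no independent evidence. unk (unkempt) encodes a zinc finger protein that binds RNA and is known for timing neural differentiation downstream of insulin and TOR signaling.

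Around the ends of the CG31457 transcript, within 500 bp on either side, the replicates differed. The end facing hh had 0.43 in replicate 1 and 0.69 in replicate 2 (0.56 ± 0.18, SD, n = 2). The end away from hh had 0.32 and 1.15 (0.74 ± 0.59), a spread so wide that the ends cannot be ranked. At the interval the study assigns to unk the values were 0.81 and 1.16, with 6 of 10 probes enriched. At a bound interval that the study assigns to no gene, chr3R:18981818-18982732, they were 1.34 and 0.78, with 9 of 13 enriched. Both intervals were called by the study on these same arrays, so their height here is no independent evidence, and other intervals of the study in the window were not used here, since 1400 entries of its list were held and the rest were not.

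Myb-bound regions were called on the mean of both replicates. A probe was significant when the mean p of the probe and an adjacent neighbor, under a null fitted to the lower side of the array, was below 0.05, and a region needed at least 4 significant probes with gaps of at most 300 bp. This gave 20 regions in the hh window, 24299 bp in all, or 48.6% of it, against 18.5% of 3R. They hold 337 of the 684 probes (49.3%), where 19.3% of the probes of 3R and 19.8% of those on all arms of the design lie in a region. A 50 kb window of 3R held 7 regions at the median, and 14 of the 557 other windows held more than 20. Region lengths in the window ran from 246 to 3285 bp with a median of 968 bp, beside a median of 776 bp over the 4158 regions of 3R. The regions were chosen by these values, so their levels are descriptions.

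Probes inside the regions had a mean of 0.75 in replicate 1 and 0.86 in replicate 2. By limma, 177 of these 337 were enriched. Probes outside had 0.16 and 0.26, and 14 of 347 were enriched (4.03%). Taking out the regions lowers this share by construction, so it is not set against the share on 3R, which includes regions. The mean of the probes outside the regions was thus above the array median in both replicates, but not in every stretch. Of the 21 stretches between regions or at the edges, 15 were above 0 in both replicates. The stretch at chr3R:18951509-18952060 was below 0 in both, with −0.50 and −0.01. Every one of the 20 regions was above 0 in each replicate, from 0.30 to 1.21 in replicate 1 and from 0.48 to 1.20 in replicate 2, and 13 were higher in replicate 2.

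On the CG31457 side, the longest region of the window was at chr3R:18941361-18944645 (3285 bp, 45 probes). It had 1.05 in replicate 1 and 0.87 in replicate 2, with 29 probes enriched. It followed directly on the 6.36 kb at the left edge that held no region, where the 87 probes had 0.13 and 0.07. In both replicates the mean was higher in the region than in that stretch. The region rule set the limit on these same values and so favors this contrast. At the start of the region the replicates differed. In the 1 kb bin at chr3R:18941000, replicate 1 had 1.02 and replicate 2 had 0.28. Replicate 2 then had 0.59 and 1.35 in the bins at chr3R:18942000 and chr3R:18943000.

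Between that region and the CG31457 transcript there were 3 more. The region at chr3R:18947105-18947814 had 1.21 and 0.55, and the region at chr3R:18948235-18949268 had 0.71 and 0.65. The region at chr3R:18949945-18951508 had 1.08 and 0.79, with 16 of its 22 probes enriched. Replicate 1 was the higher in all 3, and by most in the first of them.

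At CG31457 the order of the replicates turned. The region at chr3R:18952061-18953030, which takes in the end of the transcript away from hh, had 0.53 in replicate 1 and 1.20 in replicate 2, with 8 of 14 probes enriched. Just beyond the end that faces hh, the region at chr3R:18953571-18954480 had 0.50 and 0.91, with 6 of 13 enriched. Both were above the probes outside regions in each replicate, a contrast that calling regions on the mean of both replicates favors.

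The first 10.5 kb of the interval that holds hh had mostly short regions. That at chr3R:18955159-18955408 had 0.67 and 0.73 over 4 probes. That at chr3R:18956343-18957084 had 0.34 and 0.84 over 9, and that at chr3R:18957805-18958146 had 1.00 and 0.48 over 5. Each of these 3 had 1 enriched probe. The longest of the stretch, chr3R:18960143-18961809 (1667 bp), had 0.42 and 0.64 with 8 of 23 probes enriched, and chr3R:18963503-18964024 had 0.55 and 0.60 with 1 of 7. The means of these 5 regions over both replicates lay between 0.53 and 0.74. With replicate 1 alone, those at chr3R:18955159-18955408, chr3R:18956343-18957084 and chr3R:18963503-18964024 were not called. Those at chr3R:18957805-18958146 and chr3R:18963503-18964024 were called in only 9 of the 19 settings of the region rule that were tried.

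In the middle of the interval, 2 regions stood out by their level in both replicates, with lower or uneven ones beside them. At chr3R:18966145-18966925 the values were 0.90 and 0.83, with 7 of 11 probes enriched. At chr3R:18967403-18970169 (2767 bp) they were 0.47 and 0.97, with 18 of 38 enriched. At chr3R:18970913-18972214 they were 0.88 and 0.95, with 13 of 18 enriched. The first and the last of these were close in both replicates (SD of 0.05 and 0.04), whereas the one between them rested more on replicate 2. The region at chr3R:18972895-18974558 followed with 0.54 and 0.72, and 10 of 23 enriched.

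Toward unk the regions were first short and uneven, then long. The region at chr3R:18975298-18975886 had 0.30 and 0.94, that at chr3R:18976423-18977387 had 0.41 and 1.02, and that at chr3R:18979318-18979563 had 0.71 and 1.10. These 3 were higher in replicate 2 and were not called in replicate 1 alone. The region at chr3R:18979910-18982864 (2955 bp, 41 probes) had 1.05 and 0.89 with 30 probes enriched, and it takes in the interval that the study assigns to no gene. The last region, chr3R:18983409-18984442, had 0.80 and 1.06 with 8 of 14 enriched and takes in the entry naming unk.

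The longest regions were thus at either side of the window, 12.1 to 8.86 kb before the end of CG31457 and 26.4 to 29.4 kb beyond it. Of the 19 settings of the region rule that were tried, 3 regions were called in all, namely these 2 and chr3R:18949945-18951508. At least 17 settings called 13 of the 20, and the other 7 were called in 9 to 14. With replicate 2 alone a region was called at all 20 positions, and with replicate 1 alone at 14.

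**Figure D3:**
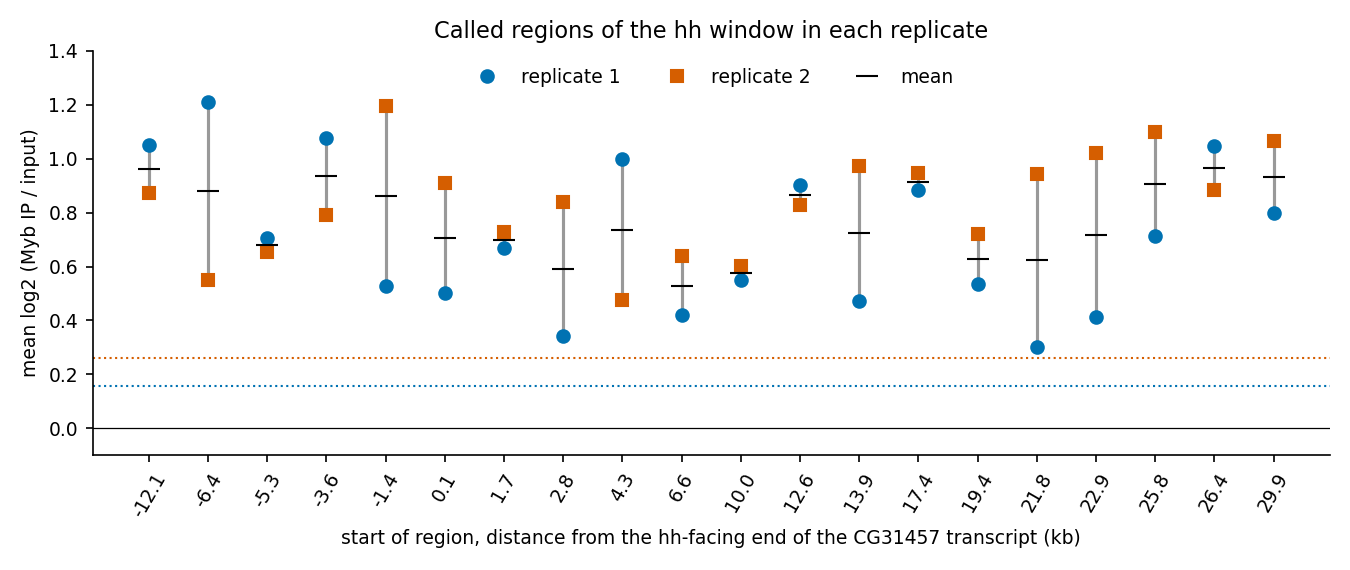
Mean log2 (Myb IP / input) of the 20 called regions in replicate 1 (circles), replicate 2 (squares) and their mean (dashes), in order along the chromosome and labeled on the x axis by the distance of their start from the hh-facing end of CG31457 (kb). Dotted lines mark the probes outside regions, at 0.16 in replicate 1 and 0.26 in replicate 2. Every region lies above its replicate's line, which calling regions on the mean of both replicates favors.

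Single probes were ranked by the lower of their 2 values, and 3 of the highest 5 were in the region at chr3R:18941361-18944645. The probe at chr3R:18943936-18943985 had 1.73 in replicate 1 and 2.30 in replicate 2 (limma adjusted p = 0.00117). Those at chr3R:18943409-18943458 and chr3R:18943345-18943394 had 1.62 and 1.85, and 1.54 and 1.61 (limma adjusted p = 0.00158 and 0.00215). The other 2 were in the interval that holds hh. At chr3R:18982815-18982864 the values were 1.67 and 1.91 (limma adjusted p = 0.00141), and at chr3R:18973117-18973166 they were 1.56 and 1.89 (limma adjusted p = 0.00165). All 5 had over 1.5 in both replicates.

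At the other end, the lowest 5 probes by the higher of their values lay apart from one another and formed no run. However, the probe at chr3R:18967004-18967053 was in a stretch between regions with 2 depleted probes among 6. The probe at chr3R:18961630-18961679 had −2.77 in replicate 1 and −0.74 in replicate 2 (limma adjusted p = 0.0112), and it lies inside a called region. The probe at chr3R:18957189-18957238 had −1.54 and −0.96 (limma adjusted p = 0.00737). The probe at chr3R:18952255-18952304, also inside a called region, had −1.33 and −1.20 (limma adjusted p = 0.00546). However, its input intensity was 5.28 and 5.15 and it was not well above background, so its ratio is not a measured level. The remaining pair, at chr3R:18972699-18972748 and chr3R:18967004-18967053, had −0.86 and −0.76, and −0.98 and −0.70 (limma adjusted p = 0.0370 and 0.0343).

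Of the 13 depleted probes, 9 lay outside the regions, and 12 had an input intensity above the window median in each replicate. Their median input intensity was 6165 in replicate 1 and 3454 in replicate 2, against 657 and 447 for the whole window. Their log2 ratios ran from −2.77 to −0.86 in replicate 1 and from −1.20 to −0.22 in replicate 2. Most depleted probes of the window were thus bright in input, and their values reached further below 0 in replicate 1. Not all of them were isolated. The stretch between regions at chr3R:18966926-18967402 held 2 depleted probes among 6, and that at chr3R:18982865-18983408 held 2 among 8. The part of input intensity in the depletion was not tested.

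Probe by probe, Pearson's r between replicates was 0.50 over the 684 probes and Spearman's rho was 0.48, beside 0.60 and 0.59 over the 369816 probes of 3R. The points share their arrays and, for neighbors, their fragments. The absolute difference between replicates had a median of 0.38. The 191 enriched probes had values from 0.38 to 2.09 in replicate 1 and from 0.32 to 2.74 in replicate 2.

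**Figure D4:**
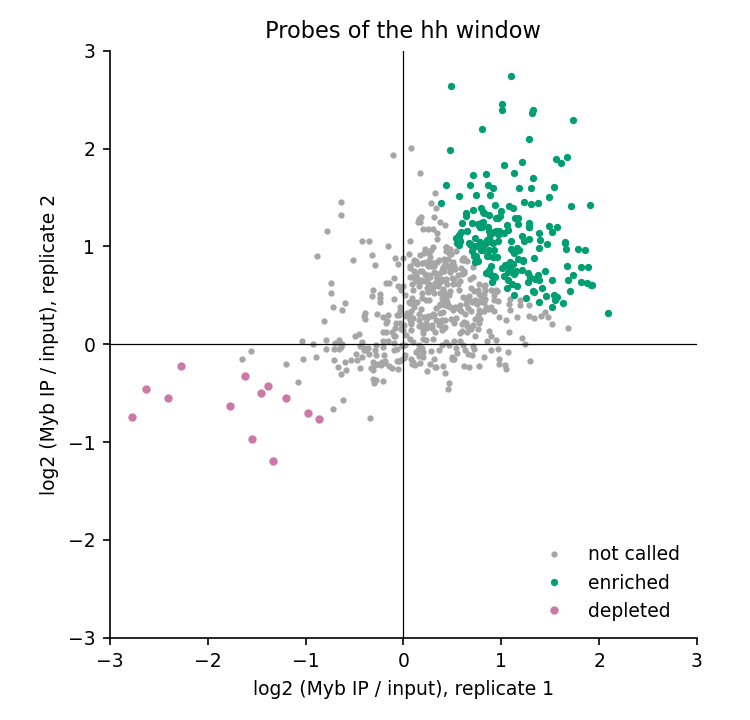
Log2 (Myb IP / input) of each of the 684 probes in replicate 1 (x axis) and replicate 2 (y axis), with enriched probes in green, depleted probes in pink and the others in gray. The cloud lies mostly in the upper right, with 494 probes above 0 in both replicates, and the 13 depleted probes reach further down in replicate 1 than in replicate 2.

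The log2 ratio moved with the input intensity, in the hh window as on the arm. Across the probes of the window, Pearson's r between the ratio and the log2 input came to −0.34 (replicate 1) and −0.41 (replicate 2), beside −0.26 and −0.37 on 3R. The input enters both measures, so part of this relation is arithmetic. The window was also dim, with a median input intensity of 657 and 447 against 883 and 585 on 3R, at percentile 16.2 of the 50 kb windows by its log2 input in replicate 1.

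The probes were therefore set against those in the same broad range of input elsewhere on 3R, although input was not matched within a range. The probes of the window were split by input into 4 classes of 171. In the class with the lowest input, the mean was 0.60 in replicate 1 and 0.81 in replicate 2, against 0.28 and 0.52 on the rest of 3R, and 60 of 171 probes were enriched (35.1% against 25.6%). In the class with the highest input, it was 0.12 and 0.31 against −0.12 and −0.04, and 27 of 171 were enriched (15.8% against 3.05%). The middle classes had 0.58 and 0.63 against 0.24 and 0.27, and 0.50 and 0.46 against 0.14 and 0.14. The hh window was the higher in all 4 classes in both replicates, and the share enriched fell from the dimmest to the brightest class in both sets.

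**Figure D5:**
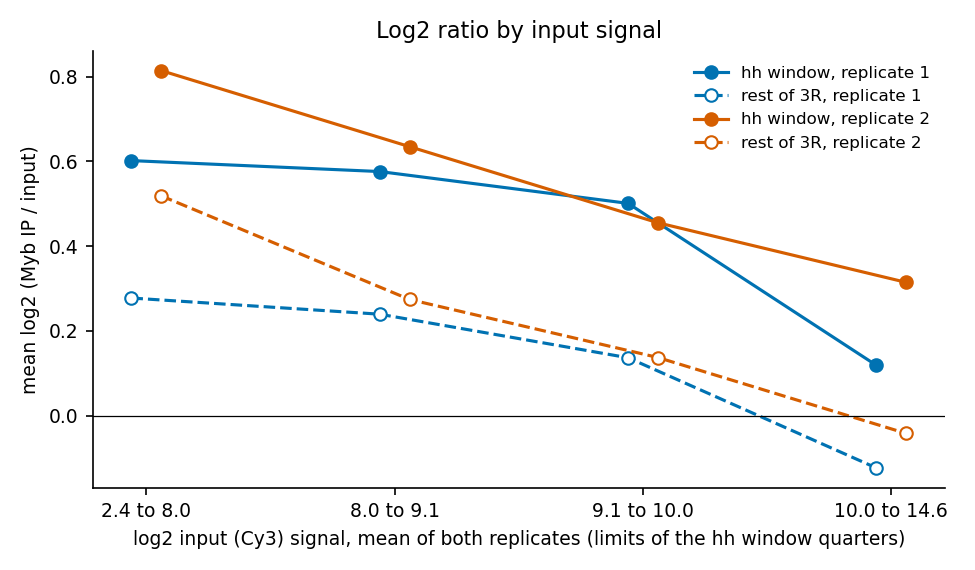
Mean log2 (Myb IP / input) of the hh window (solid lines, filled points) and of the rest of 3R (dashed lines, open points) in 4 classes of log2 input intensity, each with 171 probes of the hh window, for replicate 1 (blue) and replicate 2 (orange). The ratio falls with input in both, and the hh window lies above the rest of 3R of the same replicate in all 4 classes.

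Other genes of the Hedgehog pathway could be placed only where the study's list of bound intervals names them. Of 26 listed genes, which cover release and spread of the ligand, receptors, signaling, the factor Cubitus interruptus and the control and targets of hh in the disc, 7 had 10 named intervals among the 1400 held entries, and 19 could not be placed and have no value here. The 7 were chosen as bound on these arrays, so the values describe their height only. Their intervals lie on X, 2L, 3L and 3R, and the arrays of each design were centred on their own median. The heights are therefore not compared with the hh window.

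For spread of the ligand, dlp encodes a glypican that carries Hedgehog along cell surfaces, and its interval, which also names RecQ5, had 0.93 in replicate 1 and 1.47 in replicate 2. Among receptors, boi encodes a coreceptor, and it had 0.91 and 1.42 with 32 of 36 probes enriched. The other 5 genes act in signaling. Gprk2, a kinase that phosphorylates Smoothened, had 1.29 and 1.48, in an interval that also names CG11337. slmb, whose F-box protein takes part in the processing of Cubitus interruptus, had 1.15 and 1.25, in an interval that also names CG5793.

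Kinases that phosphorylate Cubitus interruptus completed the set. Pka-C1 had 0.66 and 1.37, in an interval that also names hoip and pelo, and CkIalpha had 0.68 and 1.37. The 4 intervals of sgg had means between 0.78 and 1.30, the first of them with 0.96 and 1.65. Replicate 2 was the higher in all 10 intervals.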

How the data were processed

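The window, the landmarks, the gene list and the tests were chosen with earlier results of these data known. The authors deposited the scanner output of each array. Before that, per the file headers, Agilent Feature Extraction version 11.5.1.1 background-subtracted the intensity of each channel, removed spatial trends and normalized the dyes, although an earlier version stands in the methods. The deposited log10 ratio served only as a check and was the same within 0.001 for 99.5% to 99.7% of spots. The deposited log2 table, whose centring is not stated, was an alternative. Control and outlier spots (0.0364% to 0.353% per array) were removed, repeated spots were averaged per probe, and arrays were centred on their median with no loess or quantile step. The number of arrays limits the precision. Of the 684 probes, 15 were not well above background in both channels of both replicates and 3 were saturated, and all were kept.

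The test of probes was a limma fit (version 3.58.1, in R version 4.3.3) of the mean over replicates against 0. Regions were called in Python version 3.11.15, numpy version 2.4.6 and pandas version 2.3.3, from a normal null at the mode (−0.10, SD 0.42 for the mean of both replicates), with bins of 0.01 smoothed over 9 bins and neighbors within 1000 bp. Both were tested on simulated data with independent noise at every probe. The simulations therefore did not cover the dependence between neighboring probes that read overlapping fragments. Windows under 0.5 of the median probe number were left out. Named are hh, genes placed in the window, every called region, the 5 highest and 5 lowest probes, and 1 kb bins. The motif search that was planned was not run, since no sequence was used here, and no probe sequence is shown. Alternatives were other centrings, normexp, spot filters, the deposited table, single replicates and other region settings.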

Additional observations from a re-analysis of the deposited data

How the results depend on the processing

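The window mean of 0.50 was 0.64 when arrays were centred on the mode and 0.42 after normexp, 0.43 when centred on 3R, and 0.45 to 0.55 with 1 replicate left out. The only sign that turned was that of the 50 kb before the window, from −0.06 to 0.0742 under mode centring. Enriched probes ranged from 154 (adjustment over the second design alone) to 266 (mode centring). The 13 depleted probes became 6 under mode centring, with the deposited table and with the second design alone. The split of enriched against depleted probes was 266 to 6 under mode centring, 161 to 14 when centred on 3R and 191 to 13 as reported. The limma test could not be fitted with 1 replicate left out, since no residual degrees of freedom remain. The 20 regions became 12 at a mean p below 0.01, 3 at a mean p below 0.001 and 13 where each replicate alone had to call them, and ranged from 14 to 22 with 1 replicate left out. Their summed length of 24299 bp became 11242 and 1736 bp at the stricter thresholds. A null from the arm probes gave 15 regions and an unsmoothed mode 18, both chosen after seeing the data. The percentile of 92.1 was 92.7 on a shifted grid, 91.8 over all arms of the design, and 91.7 to 92.1 with 1 replicate left out. Of 140 values of region means under the alternatives that kept both replicates, 119 moved by less than the spread between replicates, 21 moved more and 0 changed sign. The regions were chosen as high on these same values, so the unchanged sign is a description only. With 1 replicate left out the region means ran from 0.30 to 1.21. No paired analysis was possible because there was 1 group.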
